A study of Mus musculus with 6 samples.

Results

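This section follows 10 genes that bring fatty acids into skeletal muscle or encode uncoupling proteins, taken by gene symbol: Lpl, Gpihbp1, Angptl4, Vldlr, Cd36, Slc27a1, Slc27a4, Fabp3, Ucp2 and Ucp3. Of these, 9 had a named probe set on the arrays, and all 9 were above the signal filter that left 11526 of 18193 genes. Ucp2 had no probe set named in the annotation used here, and its expression was not analysed here. The 9 genes had 21 of the 45037 non-control probe sets, and each gene is given by its probe set of highest average log2 signal unless another is named.

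Muscle draws much of its fuel from triglycerides carried in the blood. Lipoprotein lipase, the product of Lpl, frees their fatty acids at the capillary wall, where the endothelial protein GPIHBP1 holds the enzyme, ANGPTL4 inhibits it and the VLDL receptor binds the lipoproteins. The fatty acids then enter through CD36 and the transport proteins FATP1 and FATP4, encoded by Slc27a1 and Slc27a4, are carried in the cytosol by FABP3, and are burned in mitochondria, whose inner membrane holds UCP3. Several of these genes are known targets of the PPAR nuclear receptors, which fatty acids activate.

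RNA came from gastrocnemius, a mostly fast-fibred calf muscle, of male C57BL/6J mice fed from 6 weeks of age for 15 weeks. The Control diet took 10% of its energy from fat and the high-fat diet (HF) 60%. The third diet, HF+SFC+ALA, added an iron salt (sodium ferrous citrate, 0.023% by weight) and a heme precursor (5-aminolevulinic acid phosphate, 0.2%) to the same high-fat food. Muscles were taken either 4 h or 24 h into a fast. Each of the 6 groups was 1 array of RNA pooled over a number of mice that no source used here states. The sample labels give an age of 21 months, which is not the age these feeding times add up to. No group had replicates. The p-values rest on an additive fit of diet and fasting time over the 6 pools, with 2 residual and 7.27 prior degrees of freedom. The error of the fit is the departure of these pools from additivity, moderated over all genes. It cannot be told apart from an interaction of diet and fasting, and it does not measure the spread between mice or between replicate pools. The SD of a difference between 2 pools, where given, comes from the same error. Errors are standard errors of that fit, intervals are 95% intervals, and differences are on the log2 scale unless a fold is named.

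The arrays had been scaled to a common level, with median signals from 63.0 to 69.5. The HF pool at 4 h stood apart in the actin control, whose 3′ to 5′ signal ratio was 1.52 against 1.08 to 1.22 on the other arrays. It did not stand apart in the Gapdh control, whose ratio was 0.832 against 0.814 to 0.863 on the others. The defining muscle markers were bright on every array (Acta1 from 41541 to 47742). The mean log2 signal of 10 muscle markers was lowest in the HF pool at 4 h (15.27) and highest in the HF pool at 24 h (15.47). It differed with fasting by 0.03, 0.20 and -0.12 on Control, HF and HF+SFC+ALA. The mean log2 signal of 8 slow-fibre markers moved unevenly, from 13.29 to 13.11 with fasting in the Control pools, from 12.86 to 13.50 on HF, and from 13.51 to 12.98 on HF+SFC+ALA. In pooled tissue, fewer cells of a type and less RNA per cell cannot be told apart.

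Fasting was compared first, 24 h against 4 h. Angptl4 and Cd36 rose, the former 1.58-fold and the latter 1.31-fold, and none of the 9 genes fell. Of all 11526 genes 2.41% passed, 1.49% higher and 0.920% lower. At an unadjusted p under 0.05 there were 4 of the 9, with Slc27a1 and Lpl, against 17.7% of all genes. All 9 fitted differences were positive, with a median of 0.18 against 0.01 over all genes. In 6 of 9 the fasted pool was higher in every diet, against 21.0% of all genes, and in none was it lower in every diet, against 18.3%.

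Markers of other cells also differed with fasting, and their part in the results for the 9 genes was not tested. The mean log2 signal of 7 adipocyte markers differed by -0.83, -0.26 and -0.65 on Control, HF and HF+SFC+ALA, with none past the threshold, and their summed signal was 3223 to 8269 at 4 h and 2680.0 to 7119 at 24 h. That of 8 smooth muscle and pericyte markers differed by -0.52, -0.20 and -0.19, with summed signals of 32589 to 35499 and 29608 to 35310.4. Of these 8, Acta2 (-0.47 ± 0.07, limma, adjusted p = 0.0150) and Tagln (-0.42 ± 0.08, 0.0276), both of the contractile apparatus, fell. The defining markers Myh11 (-0.19 ± 0.14, 0.530) and Pdgfrb (0.01 ± 0.08, 0.978) did not pass. Fitted differences were positive for 3 of the 8. The largest fall, that of Cnn1 (-1.30 ± 0.44, 0.166), did not pass either. The mean of 12 macrophage markers differed by -0.11, 0.24 and -0.35, and 1 of them, the scavenger receptor gene Cd163, fell (-0.68 ± 0.15, limma, adjusted p = 0.0491). Fitted differences were negative for 8 of these 12 and positive for 4.

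At the capillary wall, the signal of Angptl4 was 1299.7, 1088 and 1639 at 4 h in Control, HF and HF+SFC+ALA, and 2137, 2181 and 1946 at 24 h. Every fasted pool was above every 4 h pool, which held for 2 of the 9 genes (Slc27a1 was the other) and 10.6% of all genes; the opposite order held for none of the 9 and 8.36%. The difference was 0.66 ± 0.13 (limma, adjusted p = 0.0351). The pairs gave 0.72 on Control, 1.0 on HF and 0.25 on HF+SFC+ALA. The smaller step in HF+SFC+ALA came with the highest of the 4 h signals, and the difference between diets was not tested. The other Angptl4 probe set was too dim to use, at 14.1 to 42.6 around the floor of 26.4.

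Lpl signals were 31931, 27428 and 35555 at 4 h and 34402, 39747 and 35832 at 24 h, in the same order of diets. The 2 fasting times overlapped, and the difference of 0.22 ± 0.10 did not pass (adjusted p = 0.280). Most of it came from the HF pair, at 0.54, against 0.11 in Control and 0.01 in HF+SFC+ALA. The other Lpl probe set, at 7172 to 13042, gave a larger difference that did not pass either. It was 0.39 ± 0.13 (limma, adjusted p = 0.179 over 22518 probe sets), with 0.22, 0.86 and 0.08 in Control, HF and HF+SFC+ALA. The HF pools were the lowest (4 h) and the highest (24 h) of the 6. Lpl is strongly expressed in oxidative fibres, and the summed signal of the 8 slow-fibre markers went from 67671 to 101606 between these pools, against 73591 to 101822 in the other 4; their part in the result was not tested.

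Gpihbp1 was the flattest of the 9 genes, at 2715, 2646 and 2854 after 4 h and 3121, 2796 and 2908 after 24 h. Its highest and lowest pools were 1.18-fold apart, and no neighbours in the order of its pools differed by more than 0.12, the SD of a difference between 2 pools. The mean of 12 endothelial markers, the cell type in which Gpihbp1 is expressed, differed by 0.05, 0.15 and -0.10 with fasting in the 3 diets, and none of the 12 passed. Vldlr, at 13224 to 16774 over the pools, gave 0.11 ± 0.07 (adjusted p = 0.475).

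For uptake at the membrane, Cd36 signals were 8639.7, 10439 and 12873 at 4 h in Control, HF and HF+SFC+ALA, and 11916, 15348 and 14298 at 24 h. Within each diet the fasted pool was higher, by 0.46, 0.56 and 0.15, although the HF+SFC+ALA pool at 4 h exceeded the Control pool at 24 h. The fitted difference was 0.39 ± 0.08 (limma, adjusted p = 0.0486). In a fit over 22518 probe sets, the 3 Cd36 probe sets gave 0.34 to 0.39 with adjusted p from 0.0533 to 0.0614, past the threshold in none of them.

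The sequences before Cd36 and Ucp3 are shown because, of the 7 genes here found in the RefSeq promoter table (GRCm38.p6), they alone held AGGTCA, the core repeat unit of the element that PPARs bind, on either strand from 250 bases before to 50 after the gene start. They cover the 250 bases before the start, 5′ to 3′ along the gene, with AGGTCA in capitals (in Cd36 on the opposite strand, read as TGACCT).
Cd36, chr5:17835897-17836146, minus strand: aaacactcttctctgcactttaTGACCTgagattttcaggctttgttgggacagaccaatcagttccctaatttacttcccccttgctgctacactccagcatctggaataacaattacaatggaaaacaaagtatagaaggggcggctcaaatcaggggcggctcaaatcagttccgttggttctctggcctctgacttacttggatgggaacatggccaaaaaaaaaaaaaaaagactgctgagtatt
Ucp3, chr7:100472741-100472990, plus strand: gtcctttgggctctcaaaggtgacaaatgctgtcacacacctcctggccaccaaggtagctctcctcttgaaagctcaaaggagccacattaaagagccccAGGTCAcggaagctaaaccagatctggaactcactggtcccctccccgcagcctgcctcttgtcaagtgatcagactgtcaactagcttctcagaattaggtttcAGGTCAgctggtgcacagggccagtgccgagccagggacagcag
AGGTCA was in 16.3% of all 32851 windows of this length. No window of the 7 genes held the direct repeat of AGGTCA with 1 base between the copies (DR1, in 0.0396% of windows), of which AGGTCA itself is a part, or the FoxO core TGTTTAC (3.65%). The E box CANNTG, in 72.3% of windows, occurred 3 times in Ucp3, where 1 copy overlapped the second AGGTCA, and 2 times in Cd36. A match describes letters in this window only.

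Slc27a1 signals were 767, 1085 and 992 at 4 h and 1248, 1189 and 1481 at 24 h. All fasted pools were above all 4 h pools, yet the difference of 0.47 ± 0.12 did not pass (adjusted p = 0.0731). The pairs gave 0.13 on HF, 0.70 on Control and 0.58 on HF+SFC+ALA. Its other probe set, at 494, 580.2 and 677 after 4 h and 1081, 996 and 983 after 24 h, did pass. That probe set rose by 0.82 ± 0.12 (adjusted p = 0.0171 over 22518 probe sets, of which 1.47% passed), with 1.13, 0.78 and 0.54 in the 3 diets. Slc27a4, at 248 to 338 over the pools, gave 0.10 ± 0.15 (adjusted p = 0.789).

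Neither Fabp3 nor Ucp3, which act in the cytosol and mitochondria, passed. Fabp3 went from 28049 to 33996 in Control and from 37762 to 48947 in HF, but from 43905 to 40997 in HF+SFC+ALA, for 0.18 ± 0.09 (adjusted p = 0.333). Ucp3 went from 5431 to 5234 in Control, from 3409 to 4279 in HF and from 4942 to 5312 in HF+SFC+ALA, for 0.13 ± 0.08 (adjusted p = 0.475). On these probe sets Fabp3 and Ucp3 each had 1 diet that ran against the other 2, as did Slc27a4. The contrary differences, -0.10 for Fabp3 and -0.05 for Ucp3, were below their SDs of a difference between 2 pools (0.16 and 0.14). The other probe set of each gene was higher in the fasted pool in every diet. In Control, HF and HF+SFC+ALA it gave 0.73, 0.35 and 0.03 for Fabp3, and 0.01, 0.33 and 0.20 for Ucp3.

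**Figure D1:**
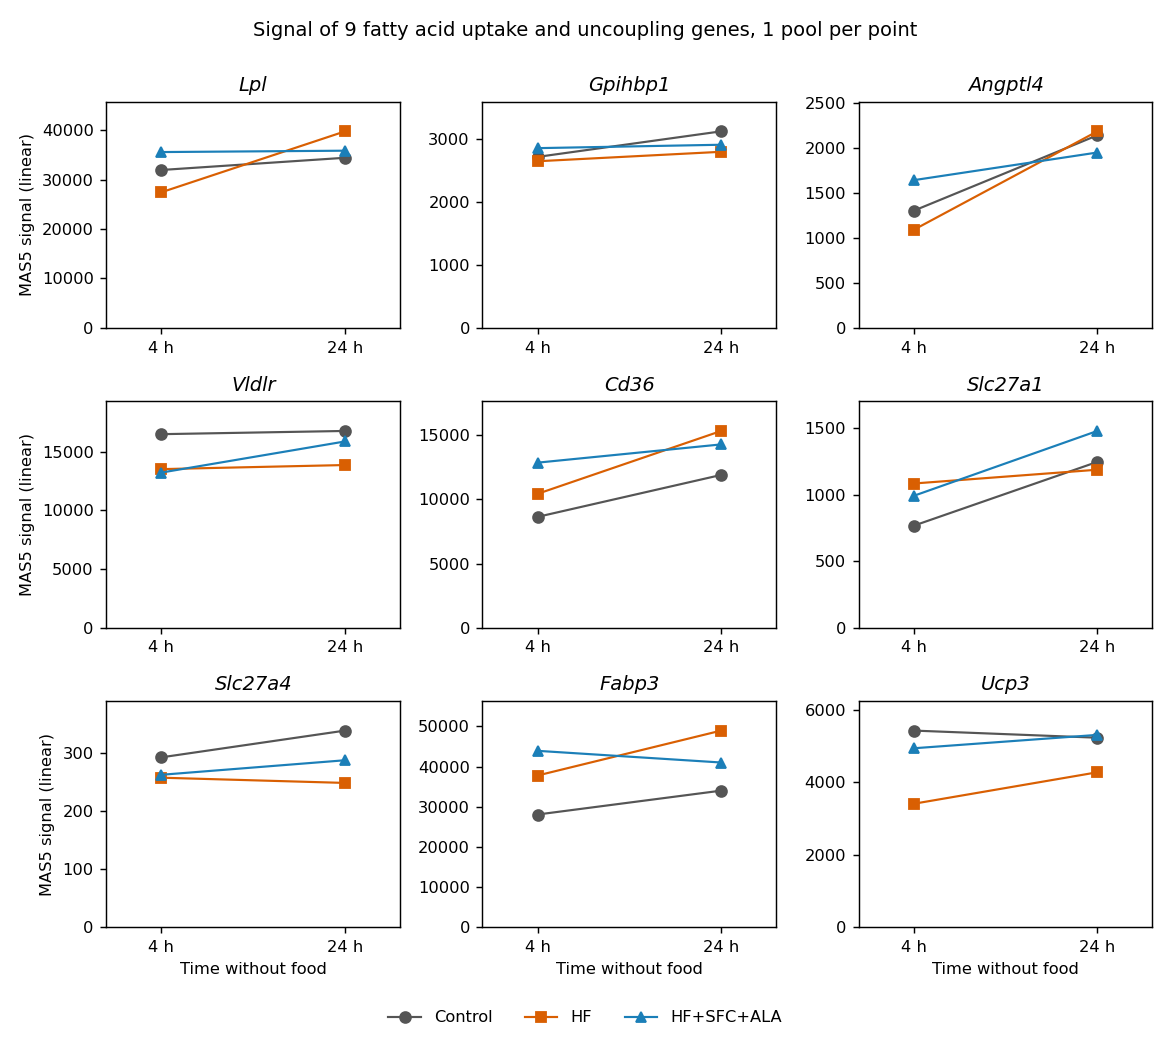
MAS5 signal (linear axis from 0) of the 9 genes against hours without food, with 1 pooled array per point and 1 line per diet. Angptl4 and Slc27a1 were higher in every fasted pool, Fabp3 was higher in every high-fat pool, and Ucp3 was lowest in both HF pools.

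The fasting calls changed without single HF pools. Without the HF pool at 4 h the differences were 0.48 for Angptl4 (adjusted p = 0.0711) and 0.31 for Cd36 (0.0931), and without the HF pool at 24 h 0.48 (0.0748) and 0.31 (0.0948); Slc27a1 instead passed without either, at 0.64 (0.0162 and 0.0164). Over all alternatives the differences ran from 0.34 to 0.86 for Angptl4 and from 0.31 to 0.51 for Cd36, with limma adjusted p up to 0.436 and 0.424.

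**Figure D2:**
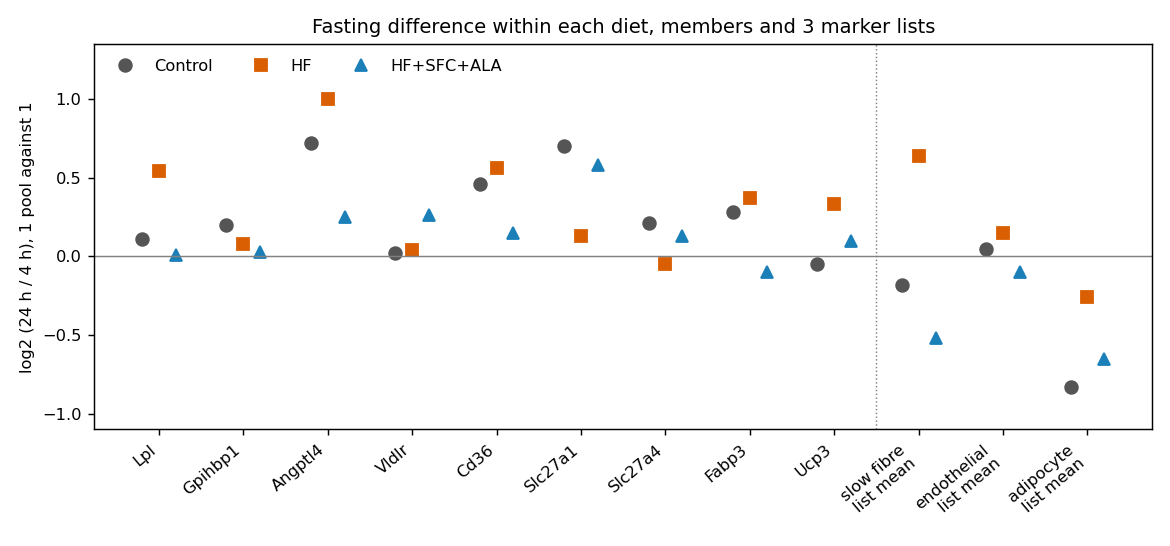
Log2 ratio of the 24 h to the 4 h pool within each diet, for the 9 genes and, right of the dotted line, the mean over 8 slow-fibre, 12 endothelial and 7 adipocyte markers. The HF pair gave the highest difference for 5 of 9 genes, Lpl, Angptl4, Cd36, Fabp3 and Ucp3, and also for the slow-fibre list at 0.64.

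The fasting difference was highest on HF for 5 of 9 genes against 36.9% of all, on Control for 3 against 33.3% and on HF+SFC+ALA for 1 against 29.8%. The lowest of the 6 pools was HF at 4 h for 4 of the 9 (Lpl, Gpihbp1, Angptl4 and Ucp3) against 18.5% of all genes, and Control at 4 h for 3 (Cd36, Slc27a1 and Fabp3) against 16.4%. It was HF+SFC+ALA at 4 h for Vldlr (14.0% of all genes) and HF at 24 h for Slc27a4 (14.4%), and for none of the 9 Control at 24 h (21.0%) or HF+SFC+ALA at 24 h (15.7%). The HF pool at 4 h is the pool with the highest actin ratio and the lowest mean signals of the slow-fibre and muscle markers. The part of any of these in the differences was not tested.

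High-fat feeding was compared next, HF against Control over both fasting times. None of the 9 genes passed in the limma fit, where 0.885% of all genes did, 0.564% higher and 0.321% lower. At an unadjusted p under 0.05 there were 4 of 9 (Fabp3 and Cd36 higher, Ucp3 and Vldlr lower) against 14.7% of all genes. The median of the 9 differences was -0.10, against 0.00 over all genes. At both fasting times 2 of 9 were higher in HF (29.4% of all genes) and 4 lower (30.6%).

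Fabp3 had the highest difference, 0.48 ± 0.11 (1.39-fold, adjusted p = 0.0995), with 0.43 at 4 h and 0.53 at 24 h. All 4 high-fat pools, at 37762 to 48947, were above both Control pools, at 28049 and 33996. Fabp3 was the 1 gene of 9 with this order (10.4% of all genes), and also the 1 with both HF pools above both Control pools (19.7%). Only 16 to 153 of 45037 probe sets were brighter on an array, and for Lpl 46 to 150. A second Fabp3 probe set, at 58.6 and 97.2 in Control and 116 to 167 in the high-fat pools, gave 0.97 ± 0.30 (adjusted p = 0.221).

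Cd36 stood at 0.32 ± 0.10 (adjusted p = 0.201), higher in HF at both times by 0.27 and 0.37. Its 3 probe sets gave 0.32 to 0.42, each positive in both pairs and none past the threshold. Adipocytes and macrophages also express Cd36, and their markers differed between the same pools. The mean log2 signal of 7 adipocyte markers was 1.22 higher in HF at 4 h and 1.78 at 24 h, with Lep, Adipoq and Cidec past the threshold. Retn (2.17 ± 0.49) did not pass, and Pck1 (0.13), Thrsp (0.05) and Lipe (-0.13) differed little. Lep was below the floor in Control at 24 h, at 19.5. The mean of 12 macrophage markers was 0.44 and 0.79 higher, all 12 with positive fitted differences and none past the threshold. Summed, the adipocyte markers gave 7119 to 8269 in HF and 2759 to 3223 in Control, with Adipoq at 4280.0 to 4637 and 577 to 901, and the macrophage markers 5403 to 6419.7 and 3649 to 4073. For HF+SFC+ALA against HF the adipocyte mean differed by -0.93 at 4 h and -1.32 at 24 h, the macrophage mean by 0.13 and -0.45, and Cd36 by 0.30 and -0.10; the part of these cells in the Cd36 values was not tested.

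Ucp3 had the lowest difference, -0.48 ± 0.10 (1.40-fold lower, adjusted p = 0.0695). The HF pools, at 3409 and 4279, were below all 4 others, at 4942 to 5431, which held for 2 of 9 genes (Slc27a4 was the other) and 5.78% of all genes, while none of the 9 had both HF pools above the rest (7.37%). In Slc27a4 that order rested on a gap of 0.03, below its SD of a difference between 2 pools (0.25). The gap of Ucp3 to Control was -0.67 at 4 h and -0.29 at 24 h. The second Ucp3 probe set gave the same direction at a smaller size, -0.22 ± 0.10 (adjusted p = 0.385).

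Vldlr was lower in HF in both pairs on all 6 of its probe sets, by -0.62 to -0.20. The brightest, at 16499 and 16774 in Control and 13517 and 13866 in HF, gave -0.28 ± 0.09 (adjusted p = 0.182). Its _x_at suffix marks a probe set that can bind related transcripts. Another Vldlr probe set, at 3165 and 3315 in Control and 1827 and 2420.5 in HF, was the only one of the 20 above the filter to pass (-0.62 ± 0.11, adjusted p = 0.0484 over 22518 probe sets, of which 0.449% passed). These probe sets read 1 gene in the same RNA and are not independent of each other.

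Slc27a4 also ran lower, at 257 and 248 in HF against 292 and 338 in Control, without passing (-0.31 ± 0.18, adjusted p = 0.447). Both HF pools were below both Control pools in Ucp3, Vldlr and Slc27a4, 3 of 9 against 18.9% of all genes, and all 4 high-fat pools in Vldlr and Slc27a4, 2 of 9 against 10.7%. The order of all 4 high-fat pools rested on gaps of 0.06 in Vldlr and 0.02 in Slc27a4. Their SDs of a difference between 2 pools were 0.12 and 0.25. Lpl, Angptl4 and Slc27a1 changed sign between the fasting times. Lpl was -0.22 at 4 h and 0.21 at 24 h, Angptl4 -0.26 and 0.03, and Slc27a1 0.50 and -0.07. Gpihbp1 gave -0.10 ± 0.09, with a 95% interval from -0.30 to 0.10.

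The calls changed with scaling, and the sizes of the differences with single pools. Centring each array on its median shifted all genes by -0.11, changed the passing genes from 65 higher and 37 lower to 81 and 271, and brought Ucp3 (-0.59, adjusted p = 0.00830) and Vldlr (-0.39, 0.0411) past the threshold. Leaving out single pools gave -0.63 to -0.33 for Ucp3 and 0.33 to 0.62 for Fabp3.

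**Figure D3:**
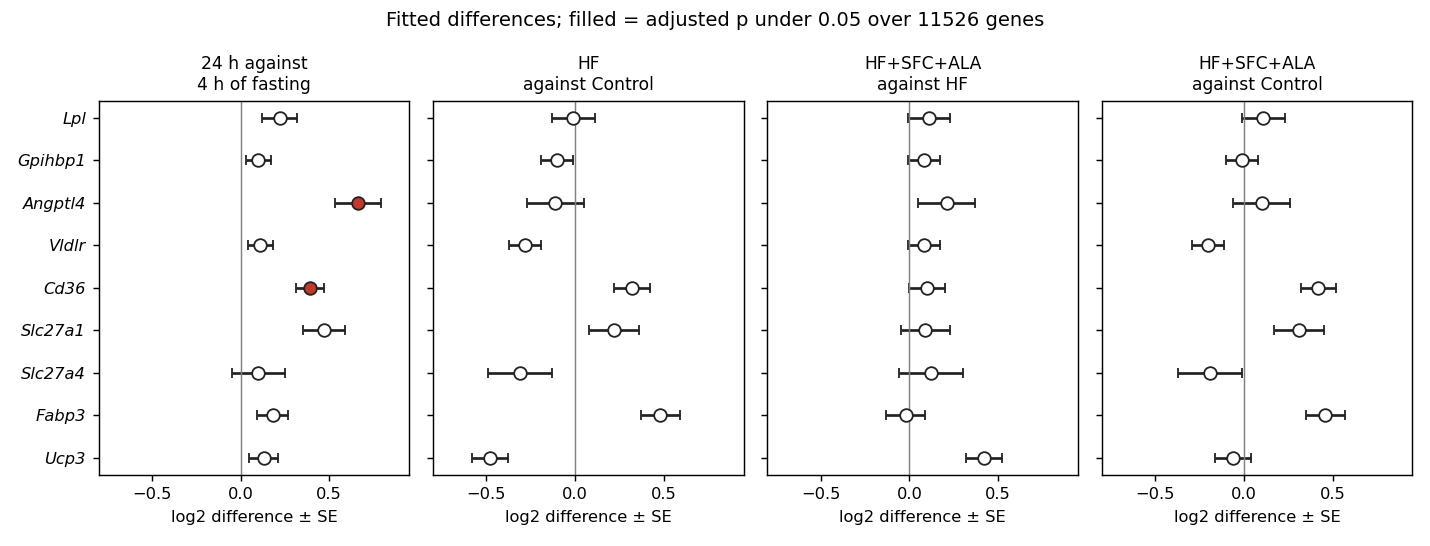
Fitted log2 differences (points) with their standard errors (bars) for the 9 genes in 4 comparisons over 6 pools; filled points passed an adjusted p of 0.05 over 11526 genes. Only Angptl4 and Cd36 with fasting are filled, and Ucp3 has opposite signs for HF against Control and HF+SFC+ALA against HF, which share the HF pools.

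The iron salt and heme precursor were examined as HF+SFC+ALA against HF. None of the 9 genes passed, as none of all 11526 did (0%). Of the 9, 8 differences were positive, from 0.08 to 0.42, and Fabp3 was -0.02 ± 0.11; the median was 0.10 against 0.00 over all genes. Gpihbp1, Slc27a4 and Ucp3 were higher at both times, 3 of 9 against 24.0% of all genes, and had both supplemented pools above both HF pools, against 13.1%. In Gpihbp1 (2854 against 2796) and Slc27a4 (262 against 257) the nearest pools were 0.03 apart. That is below the SDs of a difference between 2 pools, 0.12 and 0.25. None of the 9 was lower at both times (26.7%) or had both pools below (15.8%). At an unadjusted p under 0.05 there was 1 of the 9, Ucp3, against 5.08% of all genes.

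Ucp3 was higher in the supplemented pool at both times, 4942 against 3409 after 4 h and 5312 against 4279 after 24 h. The difference was 0.42 ± 0.10 (1.34-fold, unadjusted p = 0.00208, adjusted p = 0.449), with 0.54 and 0.31 in the 2 pairs. The second probe set gave 0.45 ± 0.10, with 0.52 and 0.39. Relative to Control the HF+SFC+ALA pools differed by -0.14 and 0.02 on the first probe set and by 0.13 and 0.32 on the second.

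The Ucp3 call changed with the pools in the fit. With only the 4 HF and HF+SFC+ALA pools it passed (0.42, adjusted p = 0.00598), as it did without the Control pool at 4 h (0.00563) or at 24 h (0.00625), settings in which 114, 107 and 109 genes passed in place of 0.

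Vldlr was higher in HF+SFC+ALA than in HF on all 6 probe sets, by 0.08 to 0.37, and in both pairs on 5 of them, with none past the threshold. Angptl4 and Lpl were higher at 4 h, by 0.59 and 0.37, and lower at 24 h, by -0.17 and -0.15. Fabp3 followed the same order, 0.22 at 4 h and -0.26 at 24 h, but its other probe set was lower at both times (-0.17 and -0.50). The slow-fibre list had 0.65 and -0.52 in these pairs, and its part in the result was not tested. The intervals of the difference were -0.13 to 0.33 for Cd36, -0.15 to 0.38 for Lpl, -0.14 to 0.56 for Angptl4 and -0.27 to 0.23 for Fabp3.

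HF+SFC+ALA against Control used the same Control and HF+SFC+ALA pools again, so its values are given side by side with those above and not as separate evidence. None of the 9 genes passed (0.0347% of all genes did), and 3 of 9 had an unadjusted p under 0.05 against 12.4%. At both times 4 of 9 were higher (29.4%) and 2 lower (32.2%). Fabp3 gave 0.46 ± 0.11 and Cd36 0.42 ± 0.10 (both adjusted p = 0.199), beside 0.48 and 0.32 for HF. Vldlr gave -0.20 ± 0.09 beside -0.28, and Ucp3 -0.06 ± 0.10 beside -0.48.

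**Figure D4:**
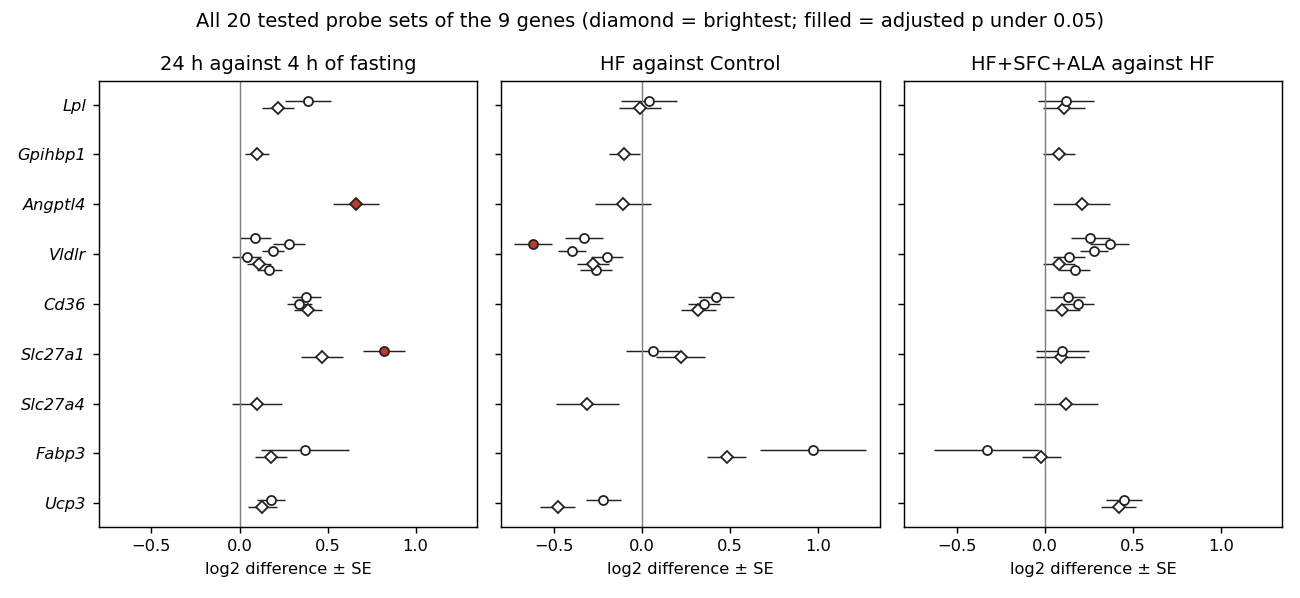
Fitted log2 differences (bars: standard error) for each of the 20 probe sets above the filter, by gene and comparison, with the brightest probe set as a diamond and filled points past an adjusted p of 0.05 over 22518 probe sets. All 6 Vldlr probe sets were below 0 for HF against Control and above 0 for HF+SFC+ALA against HF, and both Ucp3 probe sets did the same. The 2 comparisons share the HF pools with opposite sign, and probe sets of 1 gene read the same RNA. The brightest Vldlr probe set gave only 0.08 ± 0.09 for HF+SFC+ALA against HF.

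Other genes of the pathway were read from lists, starting with fasting. These lists were chosen with earlier results of these data known, so their counts are a description and not independent support. Of all genes 1.49% rose and 0.920% fell. Of 17 further PPAR targets tested, 5 rose and none fell, with a median of 0.24 against 0.01 over all genes. They were the acyl-CoA thioesterase genes Acot1 (1.45 ± 0.21) and Acot2 (1.11 ± 0.08), the catalase gene Cat (0.54 ± 0.07), Mlycd (0.49 ± 0.08), which degrades malonyl-CoA, and Txnip (0.31 ± 0.07). Of 17 nuclear receptors and coregulators, Foxo3 rose (0.39 ± 0.08) and Nr4a3 (-1.15 ± 0.18), the coactivator gene Ppargc1a (-1.0 ± 0.17) and Rxrg (-0.59 ± 0.08), which encodes a partner receptor of PPARs, fell, with a list median of -0.16.

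Among 8 other uncoupling and related carriers, Slc25a30 fell (-0.85 ± 0.12, adjusted p = 0.00978) and 7 did not pass, with a list median of -0.15. None passed among 4 other fatty acid transport proteins and acyl-CoA synthetases, 5 other lipid carriers, 14 genes of lipase assembly, control and lipoprotein receptors, or 17 genes of CD36 traffic and endothelial fatty acid transfer, whose medians were -0.05, 0.07, 0.00 and -0.03. The nearest were Acsl3 (-0.44 ± 0.11, adjusted p = 0.0731) and the chaperone gene Pdia4 (-0.66 ± 0.17, 0.0819).

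For HF against Control 0.885% of all genes passed. The binding protein gene Fabp5 was the only lipid carrier of 5 to pass (0.63 ± 0.11, limma, adjusted p = 0.0397), with a list median of 0.31. Acot2 fell (-0.59 ± 0.10, adjusted p = 0.0305), the only one of 17 PPAR targets to pass, while Decr1, an oxidation enzyme gene, stood at 0.54 ± 0.10 (0.0537). No gene of the other 5 lists passed, the nearest being Cav2, a caveolin gene (0.48 ± 0.10, 0.0806). In both comparisons that involve HF+SFC+ALA, no gene of these 7 pathway lists passed; the lowest adjusted p among them was that of Acot2 against HF (0.68 ± 0.10, adjusted p = 0.0772). The PPAR targets had a median of 0.10 against HF, with 15 of 17 positive, and of 0.31 against Control, with 14 of 17 positive. The medians over all genes were 0.00 and -0.01. In the single pairs, 47.2% to 50.2% of all genes were positive against HF and 48.4% to 48.8% against Control.

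Only Angptl4 spanned at least 2-fold over its 6 pools. Among 1549 other genes of at least that span, the closest profiles, by root mean square distance of log2 values centred on each gene's mean, were those of Gabarapl1, an autophagy gene, at 0.09, and of Slc25a34, a mitochondrial carrier gene, and Asb18, both at 0.10. Gabarapl1 signals were 1614, 1125 and 1883 at 4 h and 2611, 2427 and 2289 at 24 h in Control, HF and HF+SFC+ALA. As in Angptl4, the HF pool was the lowest of the 4 h pools and the HF+SFC+ALA pool the highest. Gabarapl1 was chosen for its closeness to these same Angptl4 values, so the likeness is not separate support.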

How the data were processed

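The deposited intensity values, 1 per probe set and array on a linear scale, came from the MAS5 algorithm according to the authors (per the submitters' processing notes), with a version and settings that no source used here names. Symbols came from the platform annotation, updated by gene identifier for 34741 of the 34945 probe sets with 1 symbol; 932 had several, 9160 had none listed, and 64 controls were left out. The 30th percentile of signal, 26.4, served as a floor before log2. Genes whose brightest probe set averaged above 5.88 (the median of all but the controls) were kept. limma 3.58.1 in R 4.3.3 (lmFit, eBayes with an intensity trend) fitted diet and fasting time additively to 6 pools, with Benjamini-Hochberg adjustment at 0.05. The fit was tested on simulated data that held no interaction of diet and fasting. That test could therefore not check the p-values where such an interaction is present. Other probe sets were fitted in a table of all non-control probe sets above the filter. Pools were grouped by their labels. Precision is limited by the number of arrays. Python 3.11.15 and matplotlib 3.10.9 drew the figures. The members and gene lists were chosen with earlier results of these data known. Named genes are the 9 members, list genes past the threshold or otherwise among the 3 largest differences of their list, and the 3 closest profiles of members spanning 2-fold. Alternatives were other scalings, filters, floors, probe set summaries, variance trends, models and leaving out each pool.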

Additional observations from a re-analysis of the deposited data

Results flagged for a closer look

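Lpl and Fabp3 had differences of opposite sign in the 2 pairs of a comparison, each beyond the SD of a difference between 2 pools. For HF against Control, Lpl was -0.22 at 4 h and 0.21 at 24 h. For HF+SFC+ALA against HF, Fabp3 was 0.22 at 4 h and -0.26 at 24 h. With 1 pool per group, neither difference between fasting times was tested. The other Lpl probe set also changed sign (-0.27 and 0.36). The other Fabp3 probe set did not, and was lower at both times (-0.17 and -0.50). Opposite signs of any size occurred in 3 of 9 genes for HF against Control, against 4616 of all 11526 genes, and in 6 of 9 for HF+SFC+ALA against HF, against 5683 of 11526 (49.3%).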

How the results depend on the processing

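Of 584 values of single genes under alternatives, 526 kept their direction and their side of the threshold, 16 lost a call, 16 gained one and 26 changed sign without a call. The 2 members called for fasting became 1 with quantile normalization or no floor and 0 with no filter, the mean over probe sets, no intensity trend or no diet in the model, and 1 to 2 when a pool was left out. For HF against Control the count of 0 became 1 with quantile normalization or only the 4 pools of both diets, 2 with median centring and 0 to 1 without a pool; for HF+SFC+ALA against HF it became 1 with only 4 pools and 0 to 1 without a pool.

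The 278 genes called for fasting became 0 with no filter (2026 at an unadjusted p under 0.05) or no trend (1639), 18 with the mean over probe sets, 60 without diet in the model and 59 to 455 without a pool; median centring changed 172 higher and 106 lower to 167 and 211. The 102 for HF against Control became 352 with median centring, 0 with no filter (1993 unadjusted) or no trend (1348), 1 with the mean over probe sets, 63 with only 4 pools and 47 to 592 without a pool. The 0 for HF+SFC+ALA against HF (585 unadjusted) became 18 with median centring, 6 with the filter at the 65th percentile, 114 with only 4 pools and 0 to 109 without a pool. The 4 for HF+SFC+ALA against Control became 0 with quantile normalization, no filter, the mean over probe sets or no trend, 23 with median centring, 88 with only 4 pools and 0 to 435 without a pool. The cause was not tested.

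Of the 26 changes of sign, those of Lpl to 0.23, Ucp3 to 0.23 and Angptl4 to -0.21 went farthest from 0. For HF against Control the mean over probe sets gave 0.03 for Angptl4 and 0.02 for Lpl, and the other Lpl probe set 0.04; leaving out a pool gave -0.37 to 0.15 for Angptl4, -0.24 to 0.23 for Lpl and -0.04 to 0.47 for Slc27a1. For HF+SFC+ALA against HF, Fabp3 was 0.05 with quantile normalization and with median centring. Leaving out a pool there gave -0.09 to 0.52 for Angptl4, -0.08 to 0.28 for Cd36, -0.23 to 0.19 for Fabp3, -0.13 to 0.35 for Lpl, -0.16 to 0.35 for Slc27a1 and -0.03 to 0.20 for Vldlr. For HF+SFC+ALA against Control, Ucp3 was 0.09 with the mean over probe sets and 0.23 on its other probe set, and leaving out a pool gave -0.19 to 0.08 for Ucp3, -0.21 to 0.41 for Angptl4, -0.09 to 0.06 for Gpihbp1 and -0.05 to 0.26 for Lpl. Where a pool was left out, the lone pool of its diet was fitted exactly and was assumed to vary like the others. The fasting difference and the error of the fit then came from the pools of the other diets alone. No paired analysis was possible because each group holds 1 pool, so no replicate numbers link samples; the fits pair pools only through their terms for diet and fasting time.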
